A study of Mus musculus with 31 samples.

Results

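The genes described here are 9 core genes of the Notch pathway, chosen by name from the 24421 genes of the count table: the receptors Notch1, Notch2 and Notch3, the ligand Jag1, the transcriptional repressors Hes1, Hey1, Hey2 and Heyl, and the feedback regulator Nrarp. All 9 were found in the table and all 9 passed the filter on low counts, among the 14036 genes that did. The samples were cultures of fibroblasts taken from hearts of C57Bl/6 mice aged 8 to 12 weeks, with RNA sequencing of 29 libraries. By the labels all groups had the same strain and tissue, none had a drug or a mutation, and the groups differed in the arrangement in which the cells were kept. No label used here gives the sex of the mice. The groups were 3D-2D-3D, 3D-2D-2D, 3D-2D, 3D and 2D, followed by 3D-5days and 2D-5days, and by flat cultures on substrates of 0.5, 8 and 64 kPa. Each group had 3 libraries except 3D-2D, which had 2. Arrangements joined by a dash in a label were taken to follow each other in that order. The sources used here do not give the length of each stay, the number of mice per library or the material of the 3D culture. They also do not say whether replicate libraries are separate cultures, so p-values measure only the spread among these libraries, and that spread may be technical.

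Notch receptors are membrane proteins that are switched on by ligands of the Jagged and Delta-like families on a neighbouring cell. Ligand binding lets an ADAM protease and then the gamma-secretase complex cut the receptor. The freed intracellular domain enters the nucleus, where it joins the DNA-binding protein RBPJ and Mastermind proteins and switches on genes such as Hes1, Hey1, Hey2, Heyl and Nrarp. In the heart and its vessels the pathway is known for its part in valve and vessel formation, in smooth muscle cells and pericytes, in which Notch3 is the characteristic receptor, and in the response of fibroblasts to injury. A read count per gene shows the level of an mRNA. It does not show cleavage of a receptor. On GRCm38.p6 of RefSeq, Notch3 lies on chromosome 17 from 32120820 to 32166896, Jag1 on chromosome 2 from 137081451 to 137116520, Hey2 on chromosome 10 from 30832359 to 30842783 and Heyl on chromosome 4 from 123233556 to 123249870.

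Gene counts per library summed to between 8509987 and 29909400. Replicate 3 stood apart from replicates 1 and 2 in the 2D, 3D and 3D-2D-3D groups and on each substrate, and replicate 1 stood apart in both 5-day groups. In 3D, for example, the SD over genes of the log2 difference was 0.280 between replicates 1 and 2, and 1.06 and 0.966 between these and replicate 3. Where leaving these libraries out changes a call or moves a called value by over 1.5 times, the value without them is given beside the result. The libraries also differed in transcripts of the sex chromosomes. The Y-linked genes Ddx3y, Eif2s3y, Kdm5d and Uty summed to at most 0.582 CPM (counts scaled to a common library total), beside 377 CPM or more of Xist, the RNA of the inactive X of females, in both 3D-2D libraries and in replicates 1 and 2 of 3D-2D-3D, 3D and 2D. Replicate 3 of those 3 groups, all 3D-2D-2D libraries and all 5-day libraries had 30.8 to 88.7 CPM of the Y-linked genes and 147 to 446 CPM of Xist. The substrate libraries had 138 to 180 CPM of the Y-linked genes and at most 0.686 CPM of Xist. The split by replicate thus went with the sex of the cells in 2D, 3D and 3D-2D-3D, and its part in the results was not tested. The 10 fibroblast markers, among them Col1a1, Pdgfra and Tcf21, each reached 1 CPM in at least 1 library of every group. Acta2, which encodes the smooth muscle actin of activated fibroblasts, averaged 53.5 ± 6.11 CPM in 3D and 3066 ± 995 CPM in 2D (SD, n = 3 each).

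**Figure D1:**
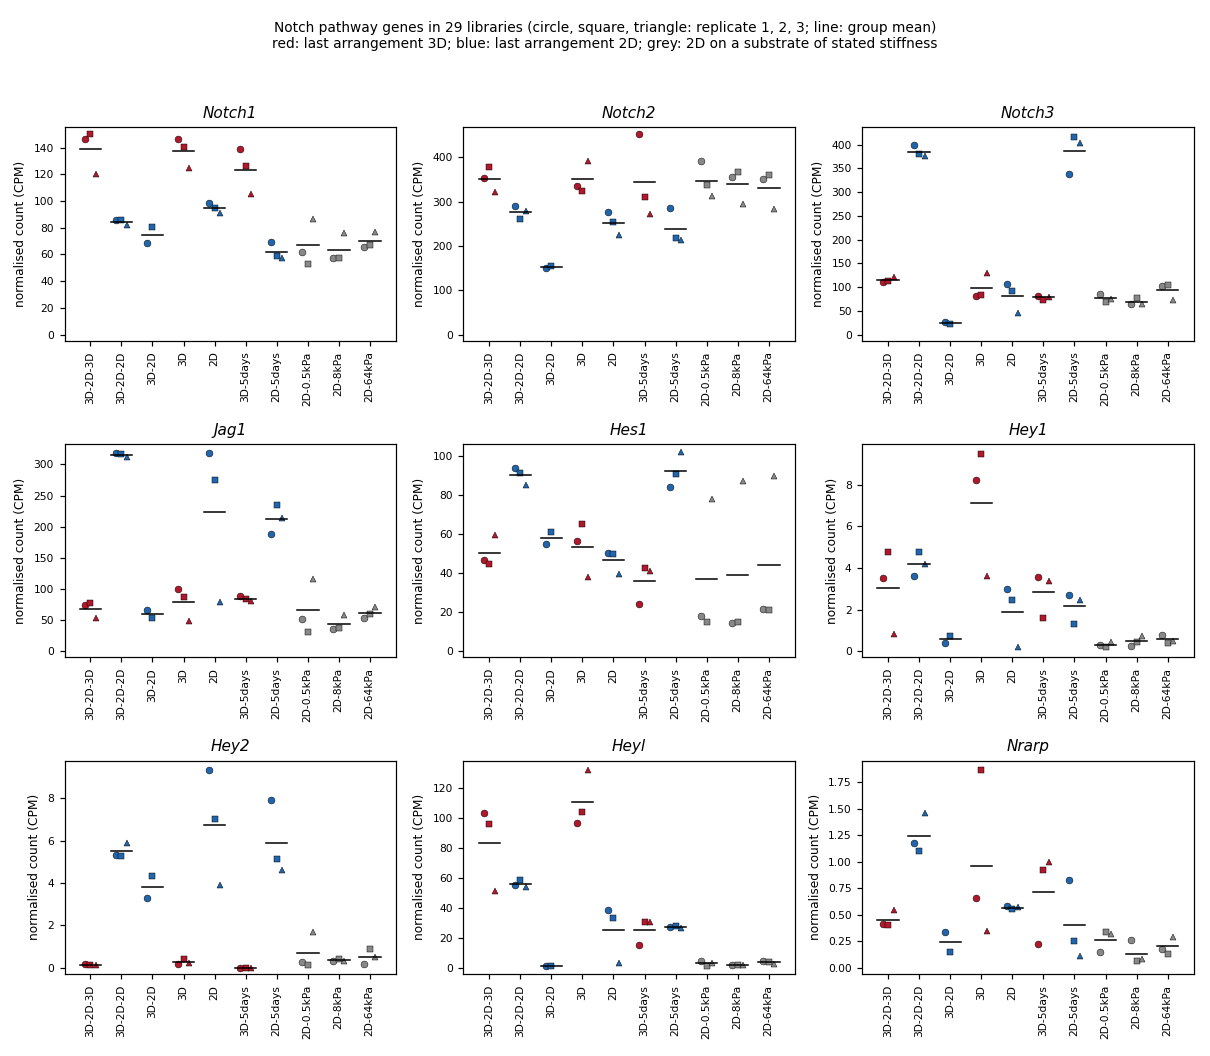
Normalised count (CPM, linear vertical axis) of each of the 9 genes in each RNA library, with 1 panel per gene and the 10 groups along the horizontal axis. Symbols are libraries, lines are group means, and red marks groups that ended in 3D. Heyl was lowest in 3D-2D, at 1.17 and 1.15 CPM, and Hey2 was at a count of 0 in all 3 libraries of 3D-5days.

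Among the receptors, Notch3 varied most across the groups. Its group means spanned 15.5-fold, against 2.25-fold for Notch1 and 2.30-fold for Notch2. Notch3 was highest in 2D-5days, with 338, 417 and 403 CPM, and in 3D-2D-2D, with 399, 380 and 376 CPM, and these groups overlapped. It was lowest in 3D-2D, with 26.7 and 23.0 CPM. The other 7 groups lay between, at means of 68.6 to 115 CPM, and each overlapped with the next in the order.

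Notch1 was highest in the 3 groups that were in 3D at the end of culture. It had 146, 150 and 120 CPM in 3D-2D-3D, 146, 140 and 125 CPM in 3D, and 139, 126 and 106 CPM in 3D-5days. No library of these 9 fell to the level of any of the other 20 libraries, whose highest value was 98.7 CPM in 2D replicate 1. The lowest group mean was 61.6 CPM in 2D-5days, which overlapped with the 3 substrate groups. Notch2 stood apart in 3D-2D, with 150 and 155 CPM, and the other group means lay between 238 and 351 CPM with overlap of each with its neighbour.

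The ligand gene Jag1 had its highest group mean in 3D-2D-2D, with 318, 317 and 312 CPM. The 2D libraries were unequal, with 318, 275 and 78.5 CPM in replicates 1, 2 and 3, and 2D-5days had 188, 235 and 214 CPM. The remaining 7 groups had means of 43.6 to 84.0 CPM and overlapped in order. On the substrates Jag1 ranged from 30.6 to 116 CPM.

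Of the repressors, Heyl had the widest span of group means, at 95.3-fold. It had 96.3, 104 and 132 CPM in 3D, 103, 96.2 and 51.4 CPM in 3D-2D-3D, and 55.3, 58.9 and 53.9 CPM in 3D-2D-2D. Both 5-day groups and 2D followed at means of 25.0 to 27.2 CPM, and 2D replicate 3 alone was at 2.96 CPM, against 38.8 and 33.3 CPM in 2D replicates 1 and 2. The 9 substrate libraries had 1.47 to 4.46 CPM. The 3D-2D libraries had 28 and 23 reads of Heyl and lay below all substrate libraries.

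Hey2 was ordered differently from Heyl. It was highest in 2D, with 9.32, 7.02 and 3.89 CPM, in 2D-5days, with 7.92, 5.14 and 4.63 CPM, and in 3D-2D-2D, with 5.31, 5.27 and 5.91 CPM, and these groups overlapped. Next came 3D-2D, with 3.30 and 4.31 CPM, and then the substrate groups, with 0.134 to 1.69 CPM. The lowest levels were in 3D, with 4, 9 and 7 reads, in 3D-2D-3D, with 5, 3 and 4 reads, and in 3D-5days, with 0 reads in each library. A count of 0 allows up to 3 reads per library, or a mean of 0.294 CPM in 3D-5days. This limit covers counting error, and reads without molecular identifiers are not independent molecules. Hey2 was thus above 3 CPM in every library of the 4 groups that ended in 2D without a stated stiffness, and under 0.5 CPM in every library that ended in 3D. The flat substrate cultures, with libraries down to 0.134 CPM, overlapped with the 0.203 to 0.430 CPM of 3D.

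Hey1 was highest in 3D, with 8.23, 9.50 and 3.61 CPM, and was under 1 CPM in both 3D-2D libraries and in every substrate library. The order of its groups overlapped at every step. Hes1 was highest in 2D-5days, with 84.3, 91.1 and 102 CPM, and in 3D-2D-2D, with 94.1, 91.4 and 85.2 CPM. On the substrates Hes1 split by replicate. Replicate 3 had 78.1, 87.5 and 89.8 CPM at 0.5, 8 and 64 kPa, and replicates 1 and 2 had 14.7 to 21.9 CPM. Nrarp, which encodes an ankyrin repeat protein that limits Notch signalling, had 1 to 39 reads per library and at most 1.86 CPM. Its values, like those of Hey2 in the groups that ended in 3D, rest on few reads.

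Across the 29 libraries, which share groups and depths, Heyl and Hey1 had a Pearson r of 0.89 in log2 CPM, whereas Heyl and Hey2 had an r of -0.002. Hey2 had an r of 0.72 with Jag1 and of -0.65 with Notch2. Notch3 and Jag1 had an r of 0.69. Among the 9111 candidate genes, those with an average log2 CPM of 3 or more, the most like Heyl were Plxna4 (r = 0.94), Dnm3os (0.93) and C1qtnf6 (0.92). The most like Hey2 were Prss23 (0.95), Dmd (0.93) and Lbh (0.93), and the most like Notch3 were Cyp2d22 (0.95), Tcf21 (0.95), a transcription factor of resting fibroblasts, and Tmem98 (0.94). For Jag1 they were Map4k3 (0.93), Gpc6 (0.92) and Adamts1 (0.90), and for Hey1 they were Fxyd6 (0.89), Lonrf1 (0.88) and Postn (0.88), the gene of periostin.

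RefSeq promoter windows on build GRCm38.p6, each 300 bases long from 250 bases before to 50 after the start, were at hand for 6 of the 9 genes. The RBPJ motif GTGGGAA was searched on both strands, where its reverse complement is TTCCCAC. It occurred at least once in 6.38% and at least 2 times in 0.256% of the 32851 windows of the table. The shorter TGGGAA, also searched, occurred at least once in 25.6% and at least 2 times in 3.79%. The Hey2 window held 2 matches to each, and the windows of Notch1, Notch2, Notch3, Jag1 and Nrarp held 0. CACGTG was searched too. It occurred in 7.15% of all windows and, among those of the 6 genes, only in that of Nrarp, with 1 match. A match describes letters in a window and not a bound site. The windows of Hey2 and Nrarp are shown because both genes are known Notch targets and differ in the RBPJ motif. Capitals mark GTGGGAA or TTCCCAC. The Hey2 stretch runs 5′ to 3′ along the minus strand of chr10:30842781-30843033, and the marked matches begin 207 and 4 bases before the start. The Nrarp stretch runs along the plus strand of chr2:25180508-25180760.
Hey2: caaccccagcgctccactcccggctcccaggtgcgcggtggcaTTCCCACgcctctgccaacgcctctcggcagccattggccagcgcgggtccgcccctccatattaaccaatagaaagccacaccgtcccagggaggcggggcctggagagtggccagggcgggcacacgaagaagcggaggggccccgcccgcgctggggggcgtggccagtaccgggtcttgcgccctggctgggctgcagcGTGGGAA
Nrarp: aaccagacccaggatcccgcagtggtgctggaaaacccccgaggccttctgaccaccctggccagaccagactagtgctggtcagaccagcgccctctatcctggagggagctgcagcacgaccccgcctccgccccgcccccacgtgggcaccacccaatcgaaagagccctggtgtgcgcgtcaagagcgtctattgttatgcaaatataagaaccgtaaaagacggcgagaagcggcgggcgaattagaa

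The first comparison asked how the genes differed between 3D and 2D. Notch1, Notch2, Hey1 and Heyl were higher in 3D, Jag1 and Hey2 were lower, and Notch3, Hes1 and Nrarp were not called. A gene was called changed when its adjusted p was under 0.05. That makes 4 genes higher and 2 lower, against 54% of all tested genes called in either direction, 26.7% higher and 27.3% lower, so the share is near the background. The median log2 fold change was 0.48 for the 9 genes and 0.03 for all genes tested. Libraries of 3D and 2D did not overlap for 5 of the 9 genes, against 56.3% of all genes.

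The largest difference was in Hey2, at 0.203, 0.430 and 0.243 CPM in 3D, against 9.32, 7.02 and 3.89 CPM in 2D. All 3D libraries lay below all 2D libraries, with a log2 fold change of -4.49 ± 0.57 (SE, n = 3 each, adjusted p = 1.65e-06). Heyl went the other way and was higher in each 3D library, by 2.17 ± 0.52 (adjusted p = 0.00133). Hey1 was higher by 1.99 ± 0.62 (adjusted p = 0.0102), and its lowest 3D library, at 3.61 CPM, was just above its highest 2D library, at 2.99 CPM. Thus 3 repressors of 1 family differed in direction between the same libraries.

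Among receptors and ligand, Notch1 was higher in 3D by 0.53 ± 0.15 (adjusted p = 0.00440) and Notch2 by 0.48 ± 0.16 (adjusted p = 0.0133). Jag1 was lower (-1.51 ± 0.41, adjusted p = 0.00379). Its groups overlapped, with 101, 87.4 and 48.3 CPM in 3D and 318, 275 and 78.5 CPM in 2D. Notch3 was at 0.29 ± 0.21 (adjusted p = 0.264), Hes1 at 0.19 ± 0.61 and Nrarp at 0.72 ± 0.55, none of them called.

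The replicates did not give the same picture for every gene. Notch3 was at -0.28 in replicates 1 and 2 alone (adjusted p = 0.113). In replicate 3 alone it was at 1.53 (adjusted p = 3.56e-05), where each group has a single library that is assumed to vary like the other groups. Heyl was at 1.45 in replicates 1 and 2 and at 5.49 in replicate 3, Hey1 at 1.68 and 4.04 (and 1.38 without 2D replicate 3 alone), Jag1 at -1.68 and -0.68, and Hey2 at -4.66 and -3.94. Notch2 was at 0.29 and not called in replicates 1 and 2, and at 0.82 in replicate 3, and it lost its call without 2D replicate 3 (0.40) or without 3D replicate 3 (0.37). With the replicate number as a block, Notch2 (0.48, adjusted p = 0.0602) and Heyl (2.61, adjusted p = 0.128) lost their calls. In a fit of these 2 groups alone Jag1 (adjusted p = 0.0792), Hey1 (0.123) and Heyl (0.0860) lost theirs. The calls of Notch1 and Hey2 held in both of those fits, and that of Hey2 also in replicate 3 alone, where Notch1 was at 0.48 (adjusted p = 0.181).

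**Figure D2:**
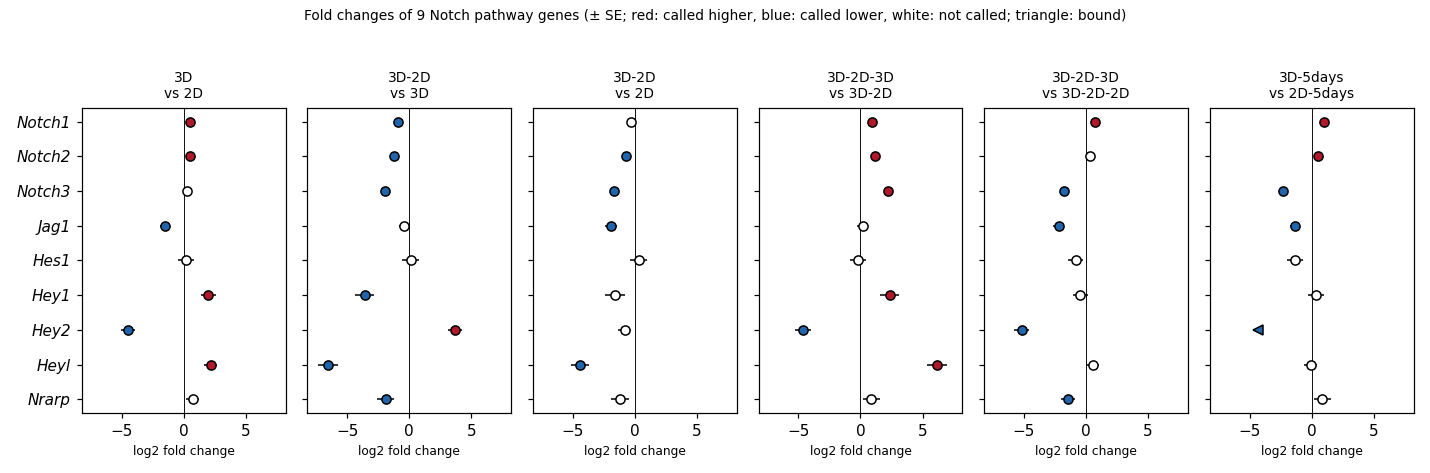
Log2 fold change of each of the 9 genes in 6 comparisons, with the standard error as a bar, red for called higher, blue for called lower and white for not called. The triangle marks the bound for Hey2 at 5 days, at least 20.1-fold lower in 3D-5days. Heyl and Hey2 lie on opposite sides of 0 in 3D against 2D, in 3D-2D against 3D and in 3D-2D-3D against 3D-2D.

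The next comparison asked what was different in cells moved out of 3D into 2D. In 3D-2D, 6 of the 9 genes were lower than in 3D and 1 was higher, against 56.5% of all genes called, 27.7% lower and 28.8% higher. The median was -1.20 for the 9 genes and -0.02 for all genes. All 3 receptor genes were lower. Notch3 had 26.7 and 23.0 CPM in 3D-2D, against 81.4, 84.1 and 130.0 CPM in 3D (-1.99 ± 0.26, n = 2 and 3, adjusted p = 1.25e-06). Notch2 had 150 and 155 CPM in 3D-2D, against 336, 324 and 392 CPM in 3D (-1.20 ± 0.18, adjusted p = 8.90e-06), and Notch1 was at -0.88 ± 0.17 (adjusted p = 1.51e-04). None of these 3 genes overlapped between the groups.

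Among the targets Heyl fell to 1.17 and 1.15 CPM in 3D-2D, against a mean of 111 ± 18.6 CPM in 3D (SD, n = 3), and Hey1 fell to 0.418 and 0.753 CPM, against 7.11 ± 3.10 CPM (log2 fold change -3.60 ± 0.80, adjusted p = 6.31e-04). Hey2 was higher, at 3.30 and 4.31 CPM in 3D-2D and 0.203 to 0.430 CPM in 3D (3.68 ± 0.59, adjusted p = 2.68e-05). Jag1 (-0.39 ± 0.45, adjusted p = 0.484) and Hes1 (0.13 ± 0.68, adjusted p = 0.889) were not called and overlapped. Libraries did not overlap for 7 of the 9 genes, against 70.6% of all genes. The call of Nrarp (-1.90 ± 0.67, adjusted p = 0.0206) rested on few reads, 8 and 3 in 3D-2D against 13, 39 and 10 in 3D. It was lost without 3D replicate 2 (-0.98), without 3D-2D replicate 2 (-1.47), against 3D replicate 3 alone (-0.48) and in a fit of these 2 groups alone (-1.92).

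Both 3D-2D and 2D cells were in a flat layer when collected, and 3D-2D cells had been in 3D before. Of the 9 genes 4 were lower in 3D-2D than in 2D and 0 higher, against 14.4% of all genes called, 7.54% lower and 6.85% higher. The median was -1.18 for the 9 genes and 0.01 for all genes. Notch3 had 26.7 and 23.0 CPM in 3D-2D, against 106, 91.9 and 45.6 CPM in 2D (-1.70 ± 0.25, adjusted p = 2.49e-04). Heyl had 1.17 and 1.15 CPM, against 38.8, 33.3 and 2.96 CPM (-4.40 ± 0.74, adjusted p = 8.11e-04). Jag1 was at -1.89 ± 0.48 (adjusted p = 0.0124) and Notch2 at -0.72 ± 0.18 (adjusted p = 0.0100). Both 3D-2D libraries were below all 2D libraries for these 4 genes. Over the 9 genes libraries did not overlap for 7, against 52.1% of all genes. Acta2 was at 2681 CPM in 3D-2D and 3066 CPM in 2D and was not called (-0.19 ± 0.43).

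The comparison of 3D-2D with 2D depended on 2D replicate 3. Against 2D replicate 3 alone Heyl was at -1.33, Notch3 at -0.86, Jag1 at -0.37 and Notch2 at -0.55. Where 1 library is left in a group of this comparison, few of all genes are called, so calls lost there say little about these genes. Against 2D replicates 1 and 2 alone 5 of the 9 genes were called, Hey1 among them (-2.22, adjusted p = 0.0187), against 21% of all genes. Notch2 and Jag1 also lost their calls without 3D-2D replicate 1 (-0.71 and -2.08) or replicate 2 (-0.75 and -1.74), Jag1 without 2D replicate 1 (-1.55), and Notch3, Jag1 and Heyl in a fit of these 2 groups alone, at adjusted p-values of 0.0677, 0.120 and 0.0940.

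Cells carried on to a second 3D stay were set against the 3D-2D stage they are labelled to come from. In 3D-2D-3D, 5 of the 9 genes were higher than in 3D-2D and 1 was lower, against 49.2% of all genes called, 24.2% higher and 25% lower. The median was 0.90 for the 9 genes and 0.01 for all genes. Notch3 was at 111, 114 and 120 CPM in 3D-2D-3D, against 26.7 and 23.0 CPM in 3D-2D (2.21 ± 0.26, adjusted p = 4.44e-07). Notch2 (1.20 ± 0.18, adjusted p = 1.09e-05) and Notch1 (0.90 ± 0.17, adjusted p = 1.40e-04) were higher too. Heyl was at 103, 96.2 and 51.4 CPM in 3D-2D-3D, against 1.17 and 1.15 CPM in 3D-2D (6.16 ± 0.78, adjusted p = 1.53e-06). Hey2 had 5, 3 and 4 reads in 3D-2D-3D, against 79 and 86 reads in 3D-2D (-4.63 ± 0.63, adjusted p = 4.23e-06).

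None of these 5 genes overlapped between the groups. Libraries did not overlap for 7 of the 9 genes, against 76.1% of all genes. Hey1 was higher by 2.37 ± 0.77 (adjusted p = 0.0146) and lost its call with 3D-2D-3D replicate 3 alone (0.54, adjusted p = 0.678), without 3D-2D-3D replicate 2 (1.87), without 3D-2D replicate 1 (1.97) and in a fit of these 2 groups alone (2.37, adjusted p = 0.0548). Jag1 (0.18 ± 0.45), Hes1 (-0.20 ± 0.68) and Nrarp (0.87 ± 0.69) were not called. The fold changes of 3D-2D against 3D and of 3D-2D-3D against 3D-2D share the 3D-2D libraries, so opposite signs in them are not independent. For Notch1 they were -0.88 and 0.90, for Notch2 -1.20 and 1.20, for Notch3 -1.99 and 2.21, for Heyl -6.56 and 6.16, and for Hey2 3.68 and -4.63.

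Cells labelled as returned to 3D were also set against cells labelled as kept on in 2D. The 2 groups are not a split of 1 set of cells, since all 3D-2D-2D libraries held Y-linked transcripts, at 80.9 to 82.4 CPM, and 3D-2D-3D replicates 1 and 2 held at most 0.0341 CPM. In 3D-2D-3D, Notch1 was higher than in 3D-2D-2D and Notch3, Jag1, Hey2 and Nrarp were lower, which is 1 higher and 4 lower, against 40.4% of all genes called, 19.8% higher and 20.6% lower. The median was -0.84 for the 9 genes and -0.01 for all genes, and libraries did not overlap for 7 of the 9, against 63.7% of all genes. Hey2 had 5, 3 and 4 reads in 3D-2D-3D, against 63, 43 and 65 reads in 3D-2D-2D (-5.16 ± 0.61, adjusted p = 1.18e-06). Jag1 had 74.5, 76.8 and 53.9 CPM in 3D-2D-3D, against 318, 317 and 312 CPM in 3D-2D-2D (-2.21 ± 0.42, adjusted p = 2.22e-04). Notch3 had 111, 114 and 120 CPM, against 399, 380 and 376 CPM (-1.75 ± 0.22, adjusted p = 1.35e-06). The 3D-2D-2D libraries were thus the higher ones for ligand and Notch3, while Notch1 was higher in 3D-2D-3D (0.72 ± 0.15, adjusted p = 5.27e-04). With 3D-2D-3D replicate 3 alone, whose Y-linked sum of 84.5 CPM was near that of 3D-2D-2D, Notch3 (-1.67, adjusted p = 0.00168), Jag1 (-2.54, adjusted p = 0.0115) and Hey2 (-5.32, adjusted p = 0.00104) were called, and Notch1 (0.52, adjusted p = 0.0641) was not.

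Heyl, with 103, 96.2 and 51.4 CPM in 3D-2D-3D and 55.3, 58.9 and 53.9 CPM in 3D-2D-2D, was not called (0.58 ± 0.49, adjusted p = 0.377). Hes1 was lower in each 3D-2D-3D library than in each 3D-2D-2D library and was not called in the fit of all groups (-0.84 ± 0.61, adjusted p = 0.293). A fit of these 2 groups alone called Hes1 (-0.83, adjusted p = 4.08e-04) and Notch2 (0.35, adjusted p = 0.00368). The fit of all groups includes the substrate libraries, in which Hes1 split by replicate as above. Nrarp (-1.43 ± 0.56, adjusted p = 0.0435) lost its call when any 1 of the 6 libraries was left out, at -1.58 to -1.31, with 3D-2D-3D replicate 3 alone (-1.17), and with library totals alone, with no filter and with DESeq2.

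At 5 days Notch1 and Notch2 were higher in 3D-5days than in 2D-5days, and Notch3, Jag1 and Hey2 were lower. That is 2 of 9 genes higher and 3 lower, against 32.4% of all genes called, 14.9% higher and 17.5% lower. Notch3 had 82.2, 72.9 and 79.5 CPM in 3D-5days, against 338, 417 and 403 CPM in 2D-5days (-2.30 ± 0.22, adjusted p = 4.48e-08). Notch1 had 139, 126 and 106 CPM, against 69.0, 58.7 and 57.1 CPM (1.0 ± 0.15, adjusted p = 2.10e-05). Jag1 had 88.1, 83.2 and 80.6 CPM, against 188, 235 and 214 CPM (-1.34 ± 0.41, adjusted p = 0.0152). The libraries of the 2 groups did not overlap for these 3 genes.

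Hey2 had 0 reads in each 3D-5days library, against 67, 40 and 41 reads in 2D-5days. Taken at the limit of 3 reads per library, it was at least 20.1-fold lower in 3D-5days, a log2 bound of -4.33 (adjusted p = 1.07e-06). Heyl had 15.5, 30.6 and 30.3 CPM in 3D-5days and 27.4, 27.6 and 26.4 CPM in 2D-5days (-0.09 ± 0.51, adjusted p = 0.915), and Hey1 was at 0.37 ± 0.66 (adjusted p = 0.709), neither called. Hes1 had 24.0, 42.7 and 41.0 CPM in 3D-5days, all below the 84.3, 91.1 and 102 CPM of 2D-5days, and was not called in the fit of all groups (-1.36 ± 0.63, adjusted p = 0.105). With the replicate number as a block it was called (-1.36, adjusted p = 6.04e-05), as in a fit of these 2 groups alone (adjusted p = 0.00529). Notch2 (0.53 ± 0.16, adjusted p = 0.0116) overlapped and lost its call without 3D-5days replicate 1 (0.29), without 2D-5days replicate 2 (0.48) or 3 (0.47) and in a fit of the 2 groups alone (0.56). The median of the 9 genes was -0.09, also with Hey2 at its bound, and 0.00 for all genes. Libraries did not overlap for 5 of the 9, against 40.4% of all genes. In replicates 2 and 3 alone all 5 called genes were called and Nrarp was too (2.35, adjusted p = 0.0386), against 27.3% of all genes. Nrarp had 2, 11 and 10 reads in 3D-5days and 7, 2 and 1 reads in 2D-5days, so replicate 1 went the other way.

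Whether the difference between 3D and 2D was the same at 5 days as in the cultures without a stated time was tested as a contrast of the 2 differences. All 5-day libraries held Y-linked transcripts, at 30.8 CPM or more, while replicates 1 and 2 of 3D and 2D held at most 0.582 CPM. The part of this unlike make-up in the contrast was not tested. Of the 9 genes 3 were called, all lower at 5 days, against 25.5% of all genes called, 13.2% lower. Notch3 was at -2.30 between 3D-5days and 2D-5days and at 0.29 between 3D and 2D, a difference of -2.59 ± 0.30 (adjusted p = 4.19e-06) that kept its call without any 1 of the 12 libraries. Heyl was at -0.09 at 5 days and at 2.17 between 3D and 2D, a difference of -2.26 ± 0.72 (adjusted p = 0.0251). That call ended without 3D replicate 3 (-2.07), without 3D-5days replicate 1 (-2.01) and with the replicate number as a block (-2.74, adjusted p = 0.164). For Hey2 the fitted difference was -5.04 ± 1.75 (adjusted p = 0.0392), which depends on the 0 reads of 3D-5days and is no measure of size. The bound for Hey2 at 5 days, -4.33 or lower, takes in its -4.49 between 3D and 2D, so an unlike difference is not shown. Notch1 (0.47 ± 0.21, adjusted p = 0.110) and Hes1 (-1.55 ± 0.87, adjusted p = 0.209) were called with the block, at adjusted p-values of 0.0252 and 0.00395.

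The substrate cultures asked whether the stiffness under a flat layer went with a difference. None of the 9 genes was called in any of the 3 comparisons of 0.5, 8 and 64 kPa, and neither edgeR nor DESeq2 called any of the 14036 genes tested by edgeR (0% called). At an unadjusted p under 0.05, edgeR gave 82 genes between 8 and 0.5 kPa, 175 between 64 and 0.5 kPa and 241 between 64 and 8 kPa, with 0 of the 9 among them. Heyl had 4.46, 4.02 and 2.25 CPM at 64 kPa, just above its 1.63, 2.24 and 1.81 CPM at 8 kPa, and was the single gene of the 9 without overlap in a substrate comparison. Between 64 and 8 kPa 7.47% of all genes did not overlap, and in the other substrate comparisons 3.61% (8 against 0.5 kPa) and 5.05% (64 against 0.5 kPa). A fit of the 64 and 8 kPa groups alone, with the replicate number as a block, kept 6 of the 9 genes after its filter. It called 3 of those 6 genes and 608 of the 12610 genes tested. The 3 were Jag1 (0.53, adjusted p = 0.00181), Notch3 (0.44, adjusted p = 0.0327) and Heyl (0.93, adjusted p = 0.0425). The block gave 0 of the 9 in the other substrate comparisons. Hey2 and Hey1 on the substrates lay at or under 1.69 CPM, near the limit of what these depths show.

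A wider list of 58 other Notch pathway genes, of which 52 were tested, was counted in the same comparisons. Between 3D and 2D 18 were higher and 11 lower, which is 55.8% of the list and near the 54% of all genes. Between 3D-2D and 3D 5 were higher and 23 lower, together 53.8% against 56.5% of all genes, with 9.62% higher and 44.2% lower against 28.8% and 27.7%. In 3D-2D against 2D 0 were higher and 9 lower, which is 17.3% against 14.4%. In 3D-2D-3D against 3D-2D 22 were higher and 6 lower, together 53.8% against 49.2%, with 42.3% higher and 11.5% lower against 24.2% and 25%. In 3D-2D-3D against 3D-2D-2D 17 were higher and 13 lower, together 57.7% against 40.4%, and at 5 days 8 were higher and 11 lower, together 36.5% against 32.4%. On the substrates 0 were called.

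The median log2 fold change of the wider list, beside that of all genes, was 0.17 and 0.03 in 3D against 2D, -0.31 and -0.02 in 3D-2D against 3D, -0.15 and 0.01 in 3D-2D against 2D, and 0.34 and 0.01 in 3D-2D-3D against 3D-2D. In 3D-2D-3D against 3D-2D-2D it was -0.03 and -0.01, and at 5 days -0.002 and 0.003. The counts of the list moved with some libraries, as did those of all genes. Between 3D and 2D they were 20 higher and 10 lower in replicates 1 and 2, against 23.9% and 26.7% of all genes. Between 3D-2D and 3D they were 6 and 21 without 3D replicate 3, against 29.1% and 26.9%. Between 3D-2D and 2D they were 3 and 8 without 2D replicate 3, against 10.9% and 10.1%. Without 2D replicate 1 they were 4 in all, against 5.82%. For fits left with 1 library in a group only the median of the list is given. It was 0.12 in 3D against 2D in replicate 3, -0.29 in 3D-2D against 3D replicate 3 and -0.12 in 3D-2D against 2D replicate 3. Without 3D-2D replicate 1 or 2 it was -0.19 and -0.16 against 2D. With 3D-2D-3D replicate 3 alone it was 0.31 against 3D-2D and -0.02 against 3D-2D-2D.

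The canonical Delta-like ligands were at low levels. Dll4, a ligand of vessels, had 49, 59 and 4 reads in 3D, against 2, 5 and 4 reads in 2D. After scaling, 3D replicate 3, at 0.139 CPM, was just under the 0.143 to 0.394 CPM of 2D. It was at 1 and 1 read in 3D-2D (-5.06 ± 1.23 against 3D, adjusted p = 0.00142), and was not called against 3D replicate 3 alone (-1.46, adjusted p = 0.451). At 5 days it was higher in 3D-5days (2.59 ± 0.80, adjusted p = 0.0155), a call lost without 2D-5days replicate 2 (2.39) or 3 (2.61) or 3D-5days replicate 3 (2.05), and at 3.32 in replicates 2 and 3 alone. Dll1 averaged 0.0460 CPM in 3D-2D and 0.980 CPM in 3D (-4.21 ± 1.02), and 1.04 CPM in 3D-2D-3D (4.29 ± 1.02 against 3D-2D). Notch4, the receptor known from endothelial cells, had 94.7, 96.4 and 114 CPM in 3D-2D-3D, against 26.6, 26.8 and 27.2 CPM in 3D-2D-2D (1.92 ± 0.36, adjusted p = 2.24e-04). It was chosen here after its values were seen.

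Genes of noncanonical ligands moved in both directions. Mfap2, which encodes a microfibril protein that binds Notch1, was higher in 3D than in 2D (3.26 ± 0.56, adjusted p = 4.52e-05), lower in 3D-2D than in 3D (-4.51 ± 0.71) and higher in 3D-2D-3D than in 3D-2D (3.22 ± 0.68). With 3D-2D-3D replicate 3 alone the last of these was at 2.60. Dlk2, a ligand-like inhibitor of Notch, had 87 and 77 reads in 3D-2D, against 0, 0 and 3 reads in 3D, and 1, 5 and 2 reads in 3D-2D-3D. In 2D it had 4 and 3 reads in replicates 1 and 2 and 65 reads in replicate 3. It was lower in 3D than in 2D (-4.42 ± 0.96, and -2.54 without 2D replicate 3), and these counts leave the size of that difference uncertain. At 5 days Dner had 0, 2 and 0 reads in 3D-5days, against 10, 9 and 13 reads in 2D-5days (adjusted p = 2.37e-05). Mfap5 (-2.58 ± 0.48) and Nov (-2.33 ± 0.31) were also lower in 3D-5days than in 2D-5days. Nov was lower in 3D-2D than in 2D as well (-1.25 ± 0.34), a call that was lost when either 3D-2D library, 2D replicate 1 or 2D replicate 2 was left out, at -1.45 to -1.01, and against 2D replicate 3 alone (-0.24).

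Among the genes that process or read the signal, Aph1c, a gamma-secretase subunit, had 17.8, 14.4 and 2.05 CPM in 3D, against 1.91, 1.34 and 1.32 CPM in 2D (2.91 ± 0.65, adjusted p = 7.04e-04). In replicate 3 alone it was at 0.65 and not called (adjusted p = 0.606). Also higher in 3D was the HES-related repressor gene Bhlhe41 (2.56 ± 0.40, adjusted p = 1.87e-05). The glycosyltransferase gene Lfng, whose product modifies Notch receptors and their choice of ligand, was lower in 3D-2D-3D than in 3D-2D (-3.23 ± 0.53) and than in 3D-2D-2D (-2.68 ± 0.51). In 3D-2D against 2D the ubiquitin ligase genes Neurl1b (-1.96 ± 0.50), Dtx3l (-1.35 ± 0.40) and Dtx4 (-1.28 ± 0.33) were lower. All 3 lost their calls without either 3D-2D library, at -2.31 to -0.94, Neurl1b and Dtx4 also without 2D replicate 1 (-1.81 and -1.17) and against 2D replicate 3 alone (-1.60 and -0.88), and Dtx3l without 2D replicate 3 (-0.76). In 3D-2D-3D against 3D-2D-2D Neurl1a (2.39 ± 0.32) was higher and Dll4 (-3.34 ± 0.87, and -4.54 with 3D-2D-3D replicate 3 alone) lower. Dlk1 had 34, 18 and 124 reads in 3D-2D-3D, against 4, 0 and 2 reads in 3D-2D-2D (3.36 ± 1.04). It lost its call without 3D-2D-3D replicate 3 (2.35, adjusted p = 0.0930) or without 3D-2D-2D replicate 2 (2.91, adjusted p = 0.0536), and was at 4.19 without 3D-2D-2D replicate 1.

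Rbpj, chosen after its values were seen, encodes the DNA-binding partner of the cleaved receptor. It had 109, 95.9 and 69.1 CPM in 3D, against 129, 130 and 361 CPM in 2D (-1.18 ± 0.31, adjusted p = 0.00301). That difference turned on 2D replicate 3, without which it was -0.51 and not called (adjusted p = 0.0851). In replicates 1 and 2 alone it was -0.37 (adjusted p = 0.242), and in replicate 3 alone -2.37. It had 280 and 278 CPM in 3D-2D, which was higher than in 3D (1.61 ± 0.34, adjusted p = 4.09e-04), and 110, 113 and 132 CPM in 3D-2D-3D, lower than in 3D-2D (-1.24 ± 0.34, adjusted p = 0.00445, and not called with 3D-2D-3D replicate 3 alone, at -1.06). Rbpj was thus higher in 3D-2D than in 3D, while Notch1, Notch2, Notch3, Heyl and Hey1 were lower. A group that ended in 3D was not always the lower one for Rbpj. In 3D-2D-3D it was called higher than in 3D-2D-2D. That call was lost when any 1 library of the 2 groups was left out, at 0.75 to 0.89.

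**Figure D3:**
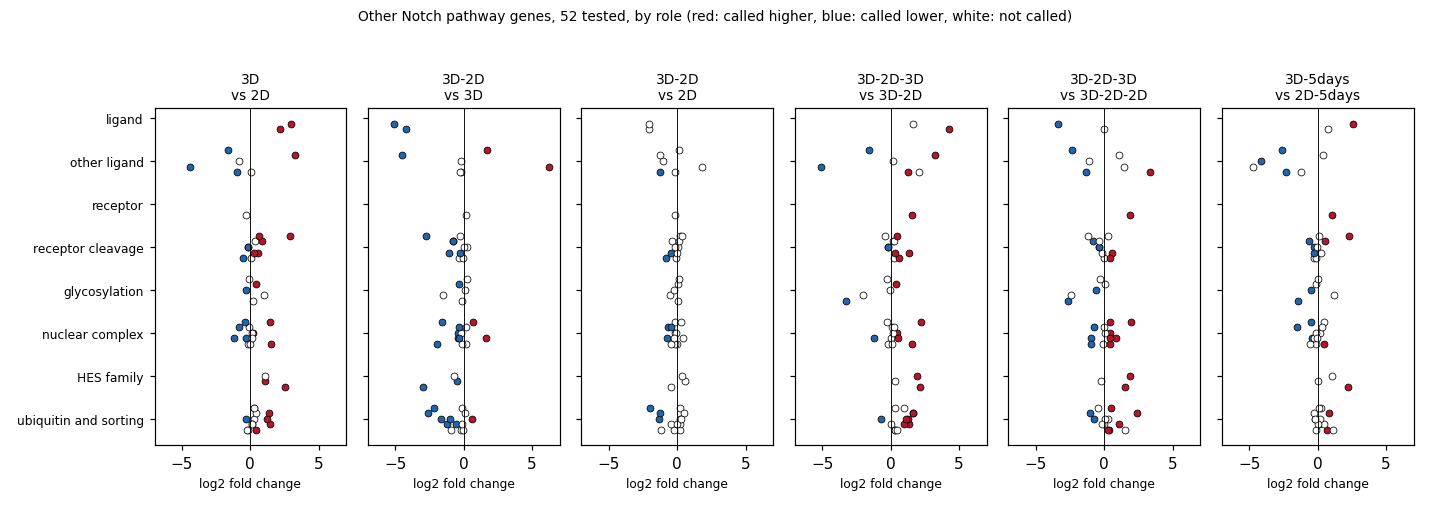
Log2 fold change of each tested gene of the wider Notch list in 6 comparisons, grouped by role, with red for called higher, blue for called lower and white for not called. In 3D-2D against 3D 23 of 52 genes were lower and 5 higher, and in 3D-2D-3D against 3D-2D 22 were higher and 6 lower.

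Markers of other heart cells moved with some of these comparisons, and in bulk RNA fewer cells of a type and less RNA per cell cannot be told apart. The 11 markers of mural cells (pericytes and smooth muscle cells) summed to 483 to 559 CPM in 3D-2D-3D and 1396 to 1461 CPM in 3D-2D-2D, and to 470 to 738 CPM in 3D-5days and 1112 to 1283 CPM in 2D-5days. The sum was 329 to 341 CPM in 3D-2D, 504 to 836 CPM in 3D and 338 to 724 CPM in 2D, so it was highest in the groups with the highest Notch3. Most of that sum was Pdgfrb, which fibroblasts also express. The highest median sums of the 10 fibroblast markers were in the same groups, at 71101.5 CPM in 3D-2D-2D and 61946.9 CPM in 2D-5days. The next median was 45193.5 CPM in 3D-5days, and the libraries of the 5-day groups overlapped in this sum. Of the fibroblast markers 0 were higher and 5 lower in 3D-2D-3D against 3D-2D-2D, and at 5 days 1 was higher and 2 lower. Of 10 tested mural markers 1 was higher and 5 lower in 3D-2D-3D against 3D-2D-2D, and at 5 days 2 were higher and 3 lower. In 3D-2D-3D against 3D-2D, where Notch3 was higher, 1 was higher and 3 lower. Other counts were 3 higher and 4 lower in 3D-2D against 3D, 3 and 3 in 3D against 2D, and 0 and 1 in 3D-2D against 2D. The 5 that moved with Notch3 in 3D-2D-3D against 3D-2D-2D were Pdgfrb, Myh11 (0.409 against 4.71 CPM), Cnn1 (0.0480 against 2.57 CPM), Rgs5 (1.58 against 4.55 CPM) and Ndufa4l2 (1.83 against 23.9 CPM), all as group means. Cspg4, at 131 CPM in 3D-2D-3D and 3.99 CPM in 3D-2D-2D, went the other way. At 5 days Pdgfrb, Myh11 and Des were lower in 3D-5days, and Kcnj8 and Abcc9 were higher. Higd1b was at 0 in all these libraries, and Kcnj8 and Abcc9 were under 1 CPM in each library of 3D-2D-2D and of 2D-5days. With 3D-2D-3D replicate 3 alone 1 mural marker was higher and 3 lower than in 3D-2D-2D. The part of cells with mural or fibroblast markers in the Notch3 difference was not tested.

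The 15 endothelial markers summed to 201 to 349 CPM in 3D-2D-3D, 231 to 241 CPM in 3D-2D-2D, 221 to 255 CPM in 3D-2D, 134 to 139 CPM in 3D, 259 to 360 CPM in 2D, 133 to 147 CPM in 3D-5days and 137 to 174 CPM in 2D-5days. Ptprb, which averaged 33.9 CPM in 3D and 244 CPM in 2D, made up most of the sum in 2D. At 5 days 10 of 14 tested endothelial markers were higher in 3D-5days and 1 was lower, and in 3D-2D against 3D 1 was higher and 9 lower. Between 3D and 2D 3 were higher and 1 lower, in 3D-2D against 2D 0 and 1, in 3D-2D-3D against 3D-2D 2 and 2, and against 3D-2D-2D 1 and 6. In replicates 1 and 2 alone 8 were higher and 1 lower in 3D than in 2D, and in replicate 3 alone 1 and 2. In 3D-2D 1 was higher and 2 lower against 3D replicate 3 alone, and with 3D-2D-3D replicate 3 alone 1 and 1 against 3D-2D-2D. Cdh5, the cadherin of endothelial junctions, had 1.89, 34.8 and 37.7 CPM in 3D-5days, against 0.118, 2.57 and 3.16 CPM in 2D-5days. It had 3.43 and 1.91 CPM in 3D-2D, 14.7, 18.0 and 3.26 CPM in 3D and 4.58, 2.92 and 14.3 CPM in 2D. Cldn5 was at 0 in both 3D-2D libraries and Sox17 at 0 in all 2D-5days libraries. Their part in the differences of Notch1, Notch4, Dll4, Hey1 and Hey2 was not tested.

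Macrophage markers, 16 genes, summed to 8600, 6053 and 298 CPM in replicates 1, 2 and 3 of 3D, against 1180, 1269 and 1475 CPM in 2D, and to 11602, 3167 and 3761 CPM in 3D-5days, against 2944, 726 and 721 CPM in 2D-5days. In 3D-2D they summed to 614 to 824 CPM, in 3D-2D-3D to 282 to 300 CPM and in 3D-2D-2D to 461 to 466 CPM. Their part in the differences between 3D and 2D was not tested. In each group at least 3 of the 8 cardiomyocyte markers were under 1 CPM in all its libraries, and their sum was at most 207 CPM.

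**Figure D4:**
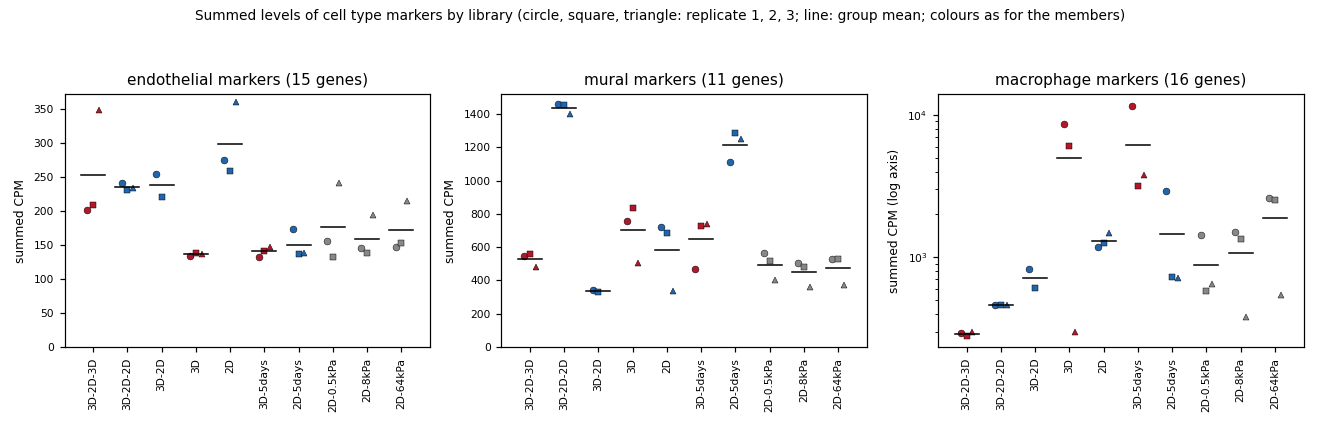
Summed CPM of the endothelial and mural markers (linear axes) and of the macrophage markers (log axis) in each library, by group, with a line at the group mean. The macrophage sum was 298 CPM in 3D replicate 3 and 8600 and 6053 CPM in 3D replicates 1 and 2, and the mural sum was highest in 3D-2D-2D.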

How the data were processed

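The counts the authors deposited form 1 table, with a row per gene symbol and a column per RNA library, and are raw, with no normalization. The submitters' processing notes name TopHat, HTSeq, Bowtie, MACS2 and the build mm10. The sources used here do not give roles, versions, annotation or strand setting. The table's 5 summary lines were left out. Reads not uniquely aligned came to 14.0% to 28.4% of a library's counts, reads outside genes to 4.84% to 10.0% and ambiguous reads to 0.881% to 1.06%. The 2 ATAC-seq libraries were not analysed here.

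From the counts, edgeR 4.0.16 (limma 3.58.1, R 4.3.3) fitted all 29 libraries with 1 mean per group, after filterByExpr and TMM scaling (factors 0.868 to 1.10). The quasi-likelihood test with robust dispersions gave 9 comparisons and 1 contrast of differences, with Benjamini-Hochberg adjustment over 14036 genes and calls at an adjusted p under 0.05. Standard errors come from the fold change and its F statistic. CPM uses the scaled library totals, and log2 CPM a prior count of 2. The procedure was tested on simulated data.

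The 9 genes, the wider Notch list and the 5 marker lists were chosen with earlier results of these data known. The rule named all 9 genes, up to 4 called genes of the wider list per comparison by size of fold change among those whose libraries did not overlap, and the 3 genes most correlated with each of the 9. Roles in the wider list were assigned after its values were seen. Replicate numbers come from the titles. Same-numbered libraries were taken as pairs where their deviations from the group means correlated above 0.1 in each of 3 pairs. This held for 3D with 2D (0.141 to 0.232), for the 5-day groups (0.288 to 0.572) and for the substrates (0.191 to 0.753). The rule does not establish pairs. Libraries correlated best with their own number in 2 of 3 cases for 3D with 2D, in 1 of 3 at 5 days and in 2 or 3 of 3 on the substrates. Alternatives were RLE size factors, library totals, other filters, DESeq2 1.42.0, fits of the 2 groups alone without and with a replicate block, single libraries left out and replicate 3 apart. The same libraries were left out for the wider list and the markers, and 3D-2D-3D replicate 3 and the 5-day replicates 2 and 3 were taken alone, as alternatives chosen after seeing the data.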

Additional observations from a re-analysis of the deposited data

Results flagged for a closer look

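For 3 of the 9 genes the 5-day cultures and those without a stated time gave unlike differences between 3D and 2D, by a test of the contrast itself. The log2 difference between the 2 fold changes was -2.59 for Notch3, -2.26 for Heyl and -5.04 for Hey2. Notch3 was lower in 3D-5days than in 2D-5days and was not called between 3D and 2D. Heyl was higher in 3D than in 2D and was not called at 5 days. Hey2 was lower in 3D in both, and its value rests on a fitted level for 3D-5days, where all counts were 0. Its bound at 5 days, a log2 fold change of -4.33 or lower, takes in the -4.49 between 3D and 2D. An unlike difference is thus not shown for Hey2. The call of Hey2 ended without any 1 of 8 of the 12 libraries, and that of Heyl without 3D replicate 3 or 3D-5days replicate 1. Replicates differ in which library stands apart, replicate 3 in 2D and 3D and replicate 1 at 5 days. The 2 sets of cultures also differ in Y-linked transcripts, which all 5-day libraries held and replicates 1 and 2 of 2D and 3D all but lacked. The part of either in these differences was not tested.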

How the results depend on the processing

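Of 1231 recomputed fold changes of the 9 genes under other settings, 1157 kept their side of the threshold. Of the rest, 53 lost a call and 21 gained one, and 0 of all changed sign after a call. Fold changes not called in the main fit were not checked for sign. Some of them changed it, such as Notch3 between 3D and 2D, at -0.28 in replicates 1 and 2 in place of 0.29. A further 27 came from 3D-2D-3D replicate 3 alone or from replicates 2 and 3 alone at 5 days, settings chosen after seeing the data. Of these 23 kept their side of the threshold, 3 lost a call and 1 gained one. Uncalled ones changed sign here too, such as Heyl with 3D-2D-3D replicate 3 alone against 3D-2D-2D, at -0.12 in place of 0.58. Most other counts of called genes among the 9 stayed within 1.5 times of the value given, and the exceptions follow. In fits of only the 2 groups compared, 3 genes were called between 3D and 2D in place of 6. Between 3D-2D and 2D 1 was called in place of 4, against 523 of 13349 genes tested. With the replicate number as a block, 7 were called between 3D-2D and 2D, against 6264 of 13349 genes tested. The 2 shared numbers there are not established as pairs. Between 64 and 8 kPa the block called 3 in place of 0, against 608 of 12610 genes tested. The count also moved in 3D-2D against 2D replicate 3 alone, and with 3D-2D-3D replicate 3 alone against 3D-2D-2D. In both of these fits 1 library was left in a group. The block gave 8 calls in 3D-2D against 3D, 8 in 3D-2D-3D against 3D-2D and 7 in 3D-2D-3D against 3D-2D-2D. In the main fit 56.5%, 49.2% and 40.4% of all genes were called in these comparisons. Numbers did not pair by the rule there (correlations of -0.077 to 0.131, -0.127 to 0.088 and -0.008 to 0.004). Where numbers did pair, the block changed no call beside those in the report. Leaving out 1 library gave 5 to 6 calls in 3D against 2D, 6 to 7 in 3D-2D against 3D, 2 to 5 in 3D-2D against 2D, 5 to 6 in 3D-2D-3D against 3D-2D, 4 in 3D-2D-3D against 3D-2D-2D, 4 to 5 at 5 days, 1 to 3 in the contrast of differences and 0 on the substrates. Over all genes, the count between 3D-2D and 2D was 2019 and ranged from 171 without 3D-2D replicate 2 to 6264 with the block, that at 5 days was 4548 and 2991 with the 2 groups alone, and that between 3D and 2D was 7576 and 4929 in replicate 3 alone. Of the 52 genes of the wider Notch list, also in settings chosen after seeing the data, 16 were called between 3D and 2D in replicate 3 alone in place of 29, 2 between 3D-2D and 2D replicate 3 in place of 9, and 19 between 3D-2D-3D replicate 3 and 3D-2D-2D in place of 30. Leaving out 1 library gave 24 to 28 in 3D against 2D, 1 to 11 in 3D-2D against 2D, 21 to 28 in 3D-2D against 3D, 22 to 30 in 3D-2D-3D against 3D-2D, 24 to 29 against 3D-2D-2D and 13 to 18 at 5 days. With 1 library left out, 47.4% to 52.4% of all genes were called in 3D against 2D, in place of 54%. The share was 33.5% to 36.8% in 3D-2D-3D against 3D-2D-2D, in place of 40.4%, and 26% to 32.5% at 5 days, in place of 32.4%. Fits left with 1 library in a group called fewer of all genes too, so lower counts there say little about this list. Dll4 changed sign between 3D and 2D in replicate 3 alone, at -0.022 in place of 2.99. The cause was not tested. With library totals alone the median of all genes moved to 0.16 in 3D against 2D, -0.16 in 3D-2D against 3D, 0.22 in 3D-2D-3D against 3D-2D-2D and 0.13 at 5 days, and in the last 2 of these 71.5% and 60.8% of called genes were higher, in place of 49.0% and 46.1%. Relative to that shift no call of the 9 genes turned in direction. Depth limits Nrarp, Hey1 and Hey2, which had under 10 reads in many libraries.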
